A study of Ricinus communis with 18 samples.

Results

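ABC transporter genes were taken as the genes whose product name in the deposited table holds the words ABC transporter, in upper or lower case. They are 112 of the 21332 genes measured by mRNA sequencing in castor (Ricinus communis) roots. Whole root systems were sampled in 6 groups of 3 libraries. Roots kept in 15% PEG-6000, a large polymer that makes water harder for roots to take up, were taken at 3 d (PEG 3 d) and at 7 d (PEG 7 d). A further group was taken at 11 d, after 4 d of rehydration (rehydrated 11 d). Each time had its own untreated group (control 3 d, control 7 d and control 11 d). The labels do not state the cultivar, the plant age or how many plants went into a library. They also leave unsaid whether replicate libraries stem from different plants, and the p-values then measure the spread between these libraries alone, which may be technical.

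ABC proteins bind and split ATP. In most plant subfamilies the ATP-binding domains are joined to membrane-spanning domains that move hormones, lipids, wall precursors, defence compounds and conjugated toxins across a membrane. Proteins of subfamilies E and F have no membrane-spanning part and act on ribosomes and translation, and many proteins of subfamily I are single domains of transporters in plastids. In roots, the family is best known for subfamily G, whose members export suberin and wax lipids, lignin precursors and hormones, for subfamily B, which holds auxin carriers, and for subfamily C, which loads conjugates into the vacuole.

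The product names give 77 of the 112 genes a subfamily letter. Subfamily G has 31 genes, B 24, C 11, F 6 and I 2, while D, E and H have 1 each and none is named A. The other 35 carry no letter, and 26 of those are named only ABC transporter family protein. The table's symbol column points to a letter for 26 of the 35: 8 to I, 4 each to A, C and G, 3 to B and 1 each to D, E and F. No gene had a letter in its name that differed from the letter in its symbol. The names were given by similarity, and for 60 of the 112 the best hit was a protein of Jatropha curcas, a related oil plant. A pair of genes has its best hit in Gordonia, 1 in a red alga and 1 in a green alga, and all of these had 0 counts in every library.

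Expression is given in FPKM, which divides the fragments of a gene by its length and by the library's total, so levels can be compared between genes. In all, 13 genes had 0 counts in all 18 libraries and 25 more had too few to be tested, at most 105 counts over the 18 libraries. The 74 genes that passed were 15 of subfamily G, 14 of B, 9 of C, 4 of F, 2 of I, 1 each of D, E and H, and 27 with no letter. A gene can pass this filter through the group in which it is high, so the tested genes are not a neutral sample of the family. Among all 112 genes, 39 stayed below 1 FPKM in every library and 51 were at 1 FPKM or more in every library. Counts were scaled between libraries by TMM, which sets aside genes with extreme differences. A gene was called where its adjusted p in edgeR's quasi-likelihood test, with the Benjamini-Hochberg adjustment over all 16085 genes tested, was below 0.05. Log2 changes are given ± SE.

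Library totals ran from 6607754 to 10817475 counts. The scaling factors of the PEG 3 d libraries, 0.7647 to 0.8063, lay below those of the control libraries, 0.9682 to 1.267. With library totals alone the median log2 change of all tested genes was -0.52 at 3 d and -0.31 at 7 d, against -0.08 and -0.06 with TMM. FPKM carries the library total and the log2 changes carry TMM, so a ratio of FPKM means at 3 d comes out lower than the log2 change. Among cell type markers, 48 genes of green shoot tissue had a summed FPKM of 803 to 1870 in PEG 3 d, against 412 to 978 in control 3 d, and of 2430 to 3060 in PEG 7 d, against 347 to 726 in control 7 d. The 8 phloem markers had a summed FPKM of 4.67 to 12.4 in PEG 3 d, against 20.7 to 39.0 in control 3 d, and of 4.02 to 7.87 in PEG 7 d, against 17.8 to 27.9 in control 7 d. The 10 xylem wall markers ran from 1.98 to 44.8 in PEG 3 d, against 15.2 to 84.2 in control 3 d, and from 1.89 to 16.5 in PEG 7 d, against 21.3 to 52.6 in control 7 d. The 4 Casparian strip genes of the endodermis ran from 1.24 to 27.6 in PEG 3 d, against 8.4 to 89.1 in control 3 d, and from 4.6 to 48.9 in PEG 7 d, against 37.1 to 103 in control 7 d. A pair of root uptake genes summed to 6.09 to 48.0 in PEG 3 d, against 403 to 604 in control 3 d, with both called lower, and to 133 to 299 in PEG 7 d, against 545 to 777 in control 7 d, with no call. None of these phloem, xylem, endodermis or uptake genes was at 0 in all 3 libraries of a group.

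The ABC transporter gene with the highest level was ABC transporter GCN1 (ncbi_8275214), with a mean of 539 FPKM over the 18 libraries. Its symbol is AB1F, and in Arabidopsis ABCF1 is a soluble ABC protein with no membrane-spanning part. A pair of subfamily G genes came next, at 113 FPKM each. They were G family member 14-like (ncbi_8280145), whose Arabidopsis counterpart sends cytokinin from root to shoot, and G family member 29-like (XLOC_017223). Its product name and its symbol, ABCG36, point to different Arabidopsis transporters, ABCG29 being an exporter of a lignin precursor and ABCG36 a defence transporter. A gene with the symbol PDR1 (ncbi_8280312) had 105 FPKM. In Nicotiana PDR1 exports antimicrobial diterpenes. A second G family member 29-like gene (ncbi_8273785), with the symbol AB36G, had 66.5 FPKM, but its libraries ran from 1.45 to 235 FPKM. In subfamily I the highest was I family member 6 (ncbi_8289484, 55.1 FPKM), part of the plastid machinery for iron-sulfur clusters, in F it was F family member 4 (ncbi_8271340, 37.1 FPKM) and in C it was C family member 5 (ncbi_8266699, 36.2 FPKM), known in Arabidopsis for moving inositol hexakisphosphate into the vacuole. In all, 36 of the 112 genes had a mean of 10 FPKM or more.

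The summed FPKM of the 31 subfamily G genes was lower in PEG than in control roots at both times. It was 186 ± 30.3 in PEG 3 d, against 390 ± 61.5 in control 3 d, and 220 ± 24.9 in PEG 7 d, against 372 ± 58.0 in control 7 d (SD, n = 3). No PEG library overlapped the controls of its day in this sum, nor after division by the TMM factors, an alternative chosen after seeing the data (199 to 261 in PEG 3 d, against 328 to 435 in control 3 d, and 239 to 264 in PEG 7 d, against 288 to 385 in control 7 d). The 3 most abundant G genes, of which edgeR called only XLOC_017223 at 3 d and none at 7 d, made up most of it. They summed to 125 ± 28.0 in PEG 3 d, against 271 ± 78.0 in control 3 d, and to 140 ± 14.5 in PEG 7 d, against 246 ± 54.3 in control 7 d. The other 28 G genes summed to 59.0 to 64.5 in PEG 3 d, against 98.2 to 138 in control 3 d, and to 59.0 to 96.3 in PEG 7 d, against 121 to 129 in control 7 d. After rehydration the sum of all G genes was 617 ± 31.2, against 599 ± 183 in control 11 d, and the groups overlapped. The 24 subfamily B genes summed to 72.8 ± 14.2 in PEG 3 d, against 124 ± 33.0 in control 3 d, and to 85.5 ± 7.03 in PEG 7 d, against 106 ± 11.3 in control 7 d. These B sums did not overlap per library total, but overlapped after division by the TMM factors, at 92.7 ± 16.1 in PEG 3 d and 116 ± 31.2 in control 3 d, and at 95.8 to 96.1 in PEG 7 d and 86.9 to 111 in control 7 d. Subfamily C gave 73.2 ± 6.81 in PEG 3 d, against 122 ± 39.2 in control 3 d, without overlap. After division by the TMM factors the C sums overlapped, at 84.0 to 98.9 in PEG 3 d and 90.7 to 158 in control 3 d. At 7 d they were then 98.7 ± 5.84 in PEG 7 d and 97.0 ± 13.6 in control 7 d. The soluble subfamily F overlapped its controls, at 63.9 to 97.1 in PEG 3 d and 92.0 to 127 in control 3 d. Subfamily I had 64.7 ± 3.92 in PEG 3 d and 64.4 ± 7.41 in control 3 d, and after division by the TMM factors 77.2 to 87.0 in PEG 3 d, against 50.8 to 66.1 in control 3 d. The genes with no letter went the other way at 7 d, with 1400 ± 137 in PEG 7 d and 856 ± 117 in control 7 d. At 3 d they overlapped, at 829 to 1370 in PEG 3 d and 734 to 1040 in control 3 d. After division by the TMM factors they did not, at 1060 to 1790 in PEG 3 d and 668 to 984 in control 3 d. Most of the PEG 7 d sum is GCN1. It made up 46.0 to 54.2% of the FPKM of all 112 genes in PEG 7 d, against 20.3 to 27.0% in control 7 d. At 3 d its share was 35.5 to 53.8% in PEG and 18.1 to 25.1% in control. Unless divided by the TMM factors, these are sums of what was expressed per library total. In whole roots, fewer cells of a type and less RNA per cell cannot be told apart.

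**Figure D1:**
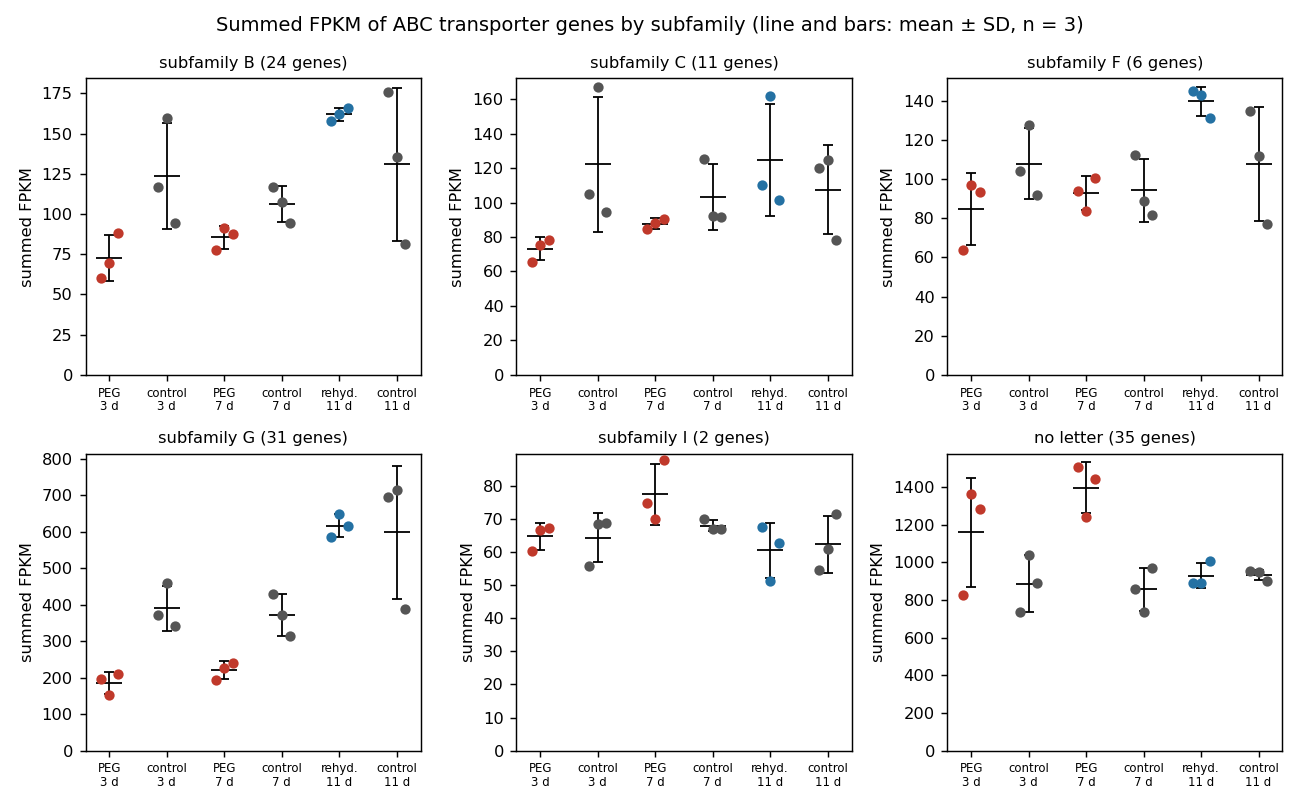
Summed FPKM of the genes named B, C, F, G or I and of those with no letter, in each of the 18 libraries (points), with the mean and SD of each group of 3. Subfamily G lay at 152 to 210 in PEG 3 d and 193 to 241 in PEG 7 d, below the 341 to 459 and 313 to 429 of the controls of the same days.

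After 3 d in PEG, 16 of the 74 tested ABC transporter genes were lower than in control 3 d roots and 4 were higher. Of all 16085 tested genes, 23.1% were called, with 11.7% higher and 11.4% lower. Among the ABC transporter genes 27.0% were called, a share near that of all genes, with 5.41% higher and 21.6% lower. Their median log2 change was -0.47, against -0.08 for all tested genes. The split between higher and lower depended on the scaling, as it did for all tested genes. With library totals it was 2 higher and 30 lower (43.2% called, against 31.5% of all tested genes). Of all tested genes 912 were then higher and 4157 lower. Once each library's trend with gene length was taken out, it was 6 higher and 7 lower (17.6%, against 19.7%). All tested genes then had 1820 higher and 1356 lower. Without control 3 d library 1 it was 1 higher and 10 lower (14.5%, against 11.6%). Without PEG 3 d library 2 it was 1 higher and 9 lower, a share near the 12.9% of all tested genes. By TMM-scaled counts the groups did not overlap for 8 of the 74 genes higher (17.4% of all tested genes were) and 24 lower (32.4%, against 18.6% of all). All 16 lower genes called had FPKM values in PEG 3 d below every control 3 d library, and 12 of them differed at least 2-fold by log2 change. The calls came from the same libraries and FPKM is not TMM-scaled, so this separation adds no support to them. The TMM-scaled counts of XLOC_017223, which is among the 16, overlapped.

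The lower genes were 6 of the 15 tested in subfamily G, 3 of 14 in B, 2 of 9 in C, the single D gene and 4 of 27 with no letter. All 4 higher genes carried no letter, and no gene was called in F, I, E or H. Median log2 changes were -1.16 in G, where 13 of 15 estimates were below 0, -0.82 in B, -0.43 in C, 0.03 in F and -0.06 without a letter, and the last pair of medians changed sign between scalings. In F the median was -0.41 with library totals and 0.38 with the length trend taken out, and without a letter it was -0.50 and 0.26. The medians of G, B and C stayed below 0, at -1.60, -1.26 and -0.87 with library totals and at -0.71, -0.34 and -0.16 with the length trend taken out. With the length trend taken out, the calls were 1 higher and 4 lower in G, 2 higher and none lower in B, and 1 lower in C. The B genes called higher in that fit were a pair of B family member 21-like neighbours (ncbi_8265878 and ncbi_8265879) and the G gene was G family member 20 (ncbi_8283862), all named after their values were seen. Reading the letter from the symbol where the name has none gave 6 lower of 16 in G, 5 lower of 17 in B, 4 lower of 13 in C, 1 higher of 5 in F, 2 higher of 10 in I and no call among 3 in A. The differences between subfamilies were not tested, and neither was the part of other cell types in these counts. At 3 d, 4 of the 7 tested phloem markers were lower and none higher, and all 10 xylem wall markers had an estimate below 0 without a call.

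**Figure D2:**
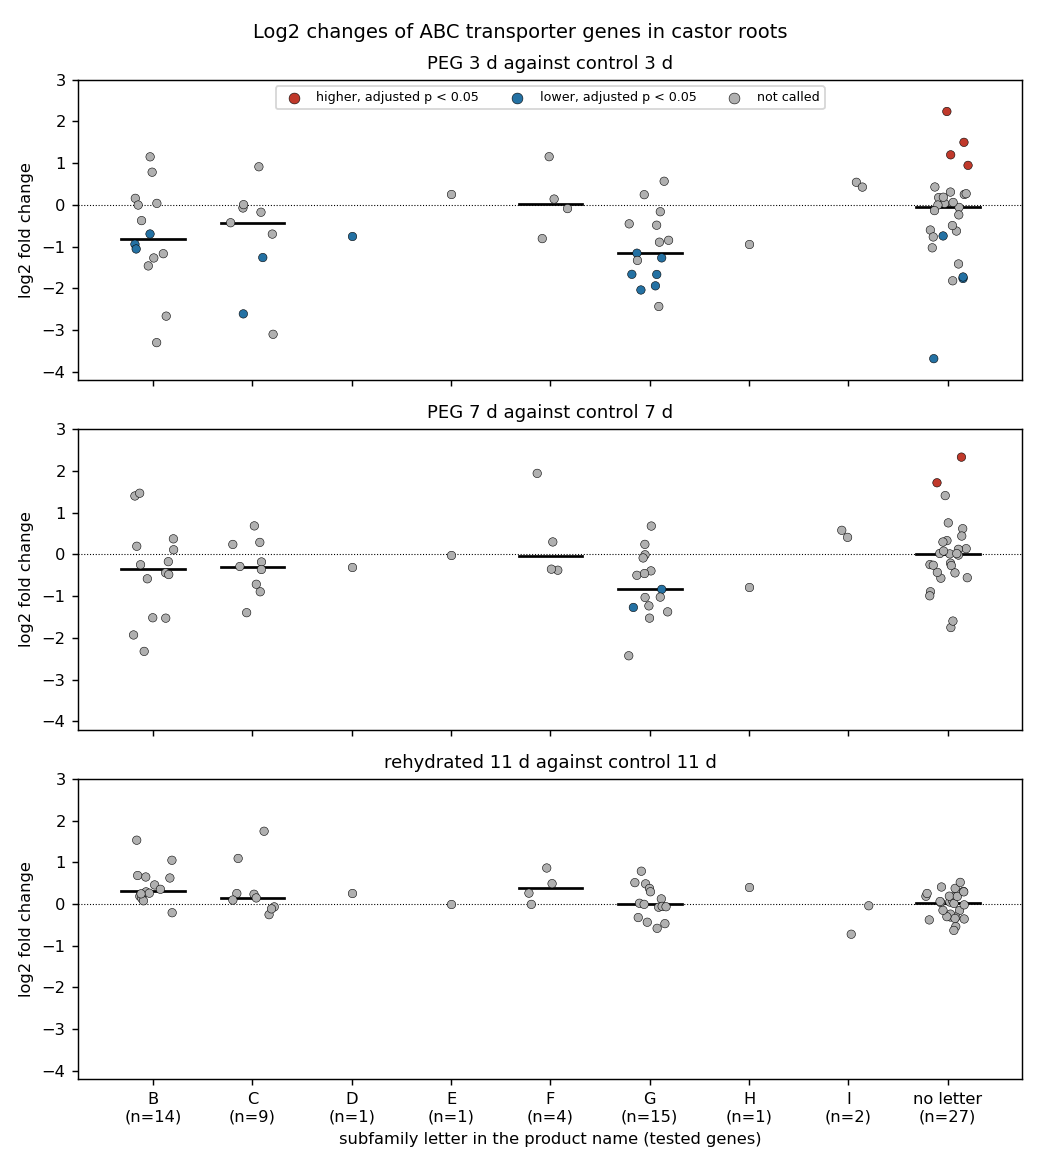
Log2 change of each tested ABC transporter gene (points) by the subfamily letter in its product name, in PEG 3 d, PEG 7 d and rehydrated 11 d roots against the control of the same day, with group medians as lines. Coloured points passed an adjusted p below 0.05: 4 higher and 16 lower at 3 d, 2 higher and 2 lower at 7 d, and none at 11 d.

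Of the 6 lower genes in subfamily G, 3 kept their call under every alternative tried and without any 1 library. The first, G family member 34-like (ncbi_8278162), whose Arabidopsis counterpart secretes an antimicrobial indole compound, had 1.9, 0.92 and 1.92 FPKM in PEG 3 d, against 10.1, 10.3 and 6.15 FPKM in control 3 d. Every PEG library was far below every control library, and the log2 change was -2.04 ± 0.31 (adjusted p = 0.000616). G family member 24-like (ncbi_8268561) had 1.98, 2.09 and 1.95 FPKM in PEG 3 d, against 7.7, 11.0 and 6.54 FPKM in control 3 d. Its PEG libraries were almost alike and its change was -1.66 ± 0.23 (adjusted p = 0.000324). G family member 3 (ncbi_8275210) had 3.07, 2.75 and 3.16 FPKM in PEG 3 d, against 10, 6.56 and 10.6 FPKM in control 3 d, a change of -1.16 ± 0.26 (adjusted p = 0.00556). In all 3 genes the FPKM of every PEG library lay below that of every control library. G family member 8 (ncbi_8277074) had 6.34, 2.12 and 5.08 FPKM in PEG 3 d, against 31.8, 11.4 and 27.3 FPKM in control 3 d. It was lower in every PEG library (-1.94 ± 0.45, adjusted p = 0.00729), and the call ended when only the 6 libraries compared were fitted (adjusted p = 0.0557).

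The other pair of lower G genes lost their calls without single libraries. G family member 11-like (ncbi_8273529), whose Arabidopsis counterpart exports cutin, wax and suberin lipids, had 2.84, 1.13 and 1.97 FPKM in PEG 3 d, against 12.2, 4.48 and 9.01 FPKM in control 3 d (-1.67 ± 0.56, adjusted p = 0.0417). The groups did not overlap, but the call ended without control library 1 or 3 or PEG library 2 or 3, with adjusted p from 0.0874 to 0.147. The abundant G family member 29-like gene (XLOC_017223) had 37.6, 15.4 and 55.0 FPKM in PEG 3 d, against 72.9, 195 and 81.7 FPKM in control 3 d (-1.27 ± 0.45, adjusted p = 0.0498). Its TMM-scaled counts overlapped, and the call ended without control library 2 or 3 or PEG library 1 or 2, with adjusted p from 0.0515 to 0.273 and a change of -0.66 without control library 2. It was also lost under 7 of 9 other alternatives. At 3 d edgeR made no call for G family member 14-like (ncbi_8280145), at 45.4, 76.1 and 79.5 FPKM in PEG 3 d and 53.9, 131 and 119 FPKM in control 3 d, with a log2 change of -0.16 ± 0.33. Nor did it call G family member 20 (ncbi_8283862), of a group needed for the suberin barrier in Arabidopsis, at 27.2, 37.6 and 31.2 FPKM in PEG 3 d and 30.8, 22.4 and 34.6 FPKM in control 3 d, with a log2 change of 0.57 ± 0.22 (adjusted p = 0.0745), though DESeq2 called it higher (adjusted p = 0.0357). Of 17 tested genes that make suberin, cutin and wax monomers, 4 were lower and none higher at 3 d. Their median log2 change was -1.07. Of all tested genes 11.4% were called lower and 11.7% higher at 3 d, and the difference from these shares was not tested.

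Among genes named multidrug resistance protein or given a subfamily C name, the largest fall of the whole family was found. A multidrug resistance protein gene with the symbol AB9C (ncbi_8279947) had 0.7, 0.42 and 0.33 FPKM in PEG 3 d, against 8.76, 8.91 and 7.8 FPKM in control 3 d. The groups were far apart and the log2 change was -3.68 ± 0.53 (adjusted p = 0.00041). C family member 3-like (ncbi_8266736), whose Arabidopsis counterpart carries glutathione conjugates into the vacuole, had 1.15, 0.47 and 1.35 FPKM in PEG 3 d, against 7.0, 10.6 and 7.02 FPKM in control 3 d. It too was lower in every PEG library (-2.61 ± 0.37, adjusted p = 0.000406), and both genes kept their call under every alternative and without any 1 library. A second C family member 3 gene (XLOC_014167) was at 0.37, 0.56 and 0.41 FPKM in PEG 3 d, against 1.74, 1.4 and 1.78 FPKM in control 3 d (-1.26 ± 0.33, adjusted p = 0.0134), and lost its call without control library 1 (adjusted p = 0.0506) or PEG library 3 (adjusted p = 0.0566). A gene with the symbol AB2C (ncbi_8266533), the name of a vacuolar pump for conjugates in Arabidopsis, had 30.1, 20.8 and 34 FPKM in PEG 3 d, against 61.4, 76.0 and 55.0 FPKM in control 3 d. Its change of -0.74 ± 0.24 (adjusted p = 0.039) lost its call without PEG library 1 or 2 or any 1 control library, with adjusted p from 0.0527 to 0.153, and was -0.20 with the length trend taken out. A further C family member 3 gene (ncbi_8266746, named after its values were seen) was not called, at 5.05, 0.79 and 2.91 FPKM in PEG 3 d and 7.16, 4.74 and 4.11 FPKM in control 3 d.

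Subfamily B and the genes with a B symbol followed the same direction where called. A gene with the symbol AB1B (ncbi_8284004), the name of an auxin exporter in Arabidopsis, had 3.93, 2.02 and 2.49 FPKM in PEG 3 d, against 17.6, 9.36 and 11.2 FPKM in control 3 d. No PEG library reached the lowest control, and the change of -1.73 ± 0.36 (adjusted p = 0.00431) kept its call under every alternative and without any 1 library. A gene named for the MDR family, with the symbol AB15B (ncbi_8265140), had 3.06, 3.57 and 3.54 FPKM in PEG 3 d, against 8.28, 29.0 and 9.46 FPKM in control 3 d (-1.76 ± 0.49, adjusted p = 0.0177). One control library stood far above the other pair. Without it, control library 2, the change was -0.94 (adjusted p = 0.115), and the call also ended without PEG library 2 (adjusted p = 0.051) or 3 (adjusted p = 0.0517). B family member 27 (ncbi_8273728), whose Arabidopsis counterpart sits in the vacuolar membrane and serves aluminium tolerance, had 5.62, 3.59 and 11.1 FPKM in PEG 3 d, against 20.5, 17.6 and 19.0 FPKM in control 3 d (-1.05 ± 0.34, adjusted p = 0.0347). B family member 25 (ncbi_8281298), which serves iron-sulfur cluster export from mitochondria, had 3.29, 2.81 and 3.74 FPKM in PEG 3 d, against 6.17, 7.78 and 7.64 FPKM in control 3 d (-0.70 ± 0.23, adjusted p = 0.039). B family member 11-like (XLOC_017520) had 6.65, 11.1 and 11.4 FPKM in PEG 3 d, against 20.9, 36.6 and 18.5 FPKM in control 3 d (-0.94 ± 0.32, adjusted p = 0.0467). These 3 lost their calls without most single libraries. For B27 they were control 1, 2 and 3 and PEG 1 and 2, with adjusted p from 0.0512 to 0.135. For B25 they were control 2 and 3 and PEG 1, 2 and 3, with adjusted p from 0.0611 to 0.127, and for the B11-like gene control 1 and 2 and PEG 1, 2 and 3, with adjusted p from 0.0589 to 0.214. All 3 also lost them with the length trend taken out, at log2 changes of -0.77, -0.28 and -0.41.

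B family member 19 (ncbi_8276048), also an auxin exporter by name, was not called at 3 d. It had 11.5, 0.93 and 3.02 FPKM in PEG 3 d and 33.4, 5.17 and 12.9 FPKM in control 3 d, and the groups overlapped. D family member 1 (ncbi_8286558), whose Arabidopsis counterpart brings fatty acids into peroxisomes for oxidation, had 4.23, 7.18 and 6.79 FPKM in PEG 3 d, against 14.4, 15.5 and 11.9 FPKM in control 3 d. The change was -0.75 ± 0.26 (adjusted p = 0.045). Its call ended without PEG library 1 or 3 or any 1 control library, with adjusted p from 0.0562 to 0.137, and the change was -0.23 with the length trend taken out.

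The 4 higher genes at 3 d had no letter in their names. GCN1 (ncbi_8275214) had 462, 1000 and 913 FPKM in PEG 3 d, against 278, 459 and 407 FPKM in control 3 d. The lowest PEG library stood just above the highest control, and the level was 2.83-fold higher by TMM-scaled counts (log2 SE 0.31, adjusted p = 0.0038), a call kept without any 1 library but not when only the 6 libraries compared were fitted (adjusted p = 0.0639). A multidrug resistance protein gene with no symbol (ncbi_8267359) had 40.9, 78.5 and 30.2 FPKM in PEG 3 d, against 6.75, 23.3 and 13.1 FPKM in control 3 d. Its libraries spread widely within both groups but did not overlap (2.24 ± 0.58, adjusted p = 0.0133), and the call ended without control library 1 (adjusted p = 0.0603) or PEG library 2 (adjusted p = 0.0649). The other pair carries subfamily I symbols. AB19I (ncbi_8280776) had 10.3, 35.3 and 20.8 FPKM in PEG 3 d, against 11.1, 15.6 and 12.6 FPKM in control 3 d, with 1 PEG library below all controls. Its change was 1.20 ± 0.39 (adjusted p = 0.0377), and it was 0.66 without PEG library 2 (adjusted p = 0.237), with the call ending also without control library 1 or 3 or PEG library 3 (adjusted p from 0.0625 to 0.129). AB11I (ncbi_8285320) had 5.38, 6.13 and 5.37 FPKM in PEG 3 d, against 2.04, 4.98 and 4.1 FPKM in control 3 d, a change of 0.95 ± 0.28 (adjusted p = 0.0238). Neither I-symbol gene was called with library totals (adjusted p = 0.137 for AB19I and 0.183 for AB11I) or when only the 6 libraries compared were fitted. AB19I lost its call under 6 of the 9 alternatives, among them the replicate block and removal of the length trend. AB11I lost its call without control library 1 (adjusted p = 0.112) or PEG library 2 (adjusted p = 0.0726).

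The rest of the plastid and ribosome-related genes were not called at 3 d in edgeR's quasi-likelihood test with TMM. DESeq2 called AB8I (ncbi_8284214) lower (-0.73, adjusted p = 0.0399). With library totals the calls included AB8I, AB17I, AB20I and AB2E, all lower. I family member 6 (ncbi_8289484) had 46.0, 57.2 and 56.3 FPKM in PEG 3 d and 46.5, 59.9 and 54.5 FPKM in control 3 d. Over all 18 libraries it ran from 45.6 to 71.7 FPKM. E family member 2 (ncbi_8265341), a ribosome recycling factor, had 22.8, 28.8 and 27.1 FPKM in PEG 3 d and 31.1, 29.9 and 28.3 FPKM in control 3 d, with a log2 change of 0.26 ± 0.19. F family member 4 (ncbi_8271340) had 25.7, 38.1 and 28.1 FPKM in PEG 3 d and 46.9, 47.0 and 39.3 FPKM in control 3 d. Its FPKM values did not overlap, while its TMM-scaled log2 change was -0.09 ± 0.22. The single H gene, H family member 4-like (ncbi_8259245), stayed at 1.21 FPKM or lower in all libraries. The 3 tested genes with a subfamily A symbol were not called at 3 d or 7 d, with estimates of 0.18, 0.31 and -0.49 at 3 d and -0.43, -0.57 and -0.44 at 7 d for AB7A (ncbi_8277386), AB2A (ncbi_8277383) and AB1A (ncbi_8287671). C family member 5 (ncbi_8266699) overlapped at 3 d, with a change of -0.17 ± 0.34, as did the most abundant gene named B, B family member 11-like (ncbi_8265880), with 14.3, 21.7 and 27.7 FPKM in PEG 3 d and 14.7, 52.4 and 19.1 FPKM in control 3 d.

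**Figure D3:**
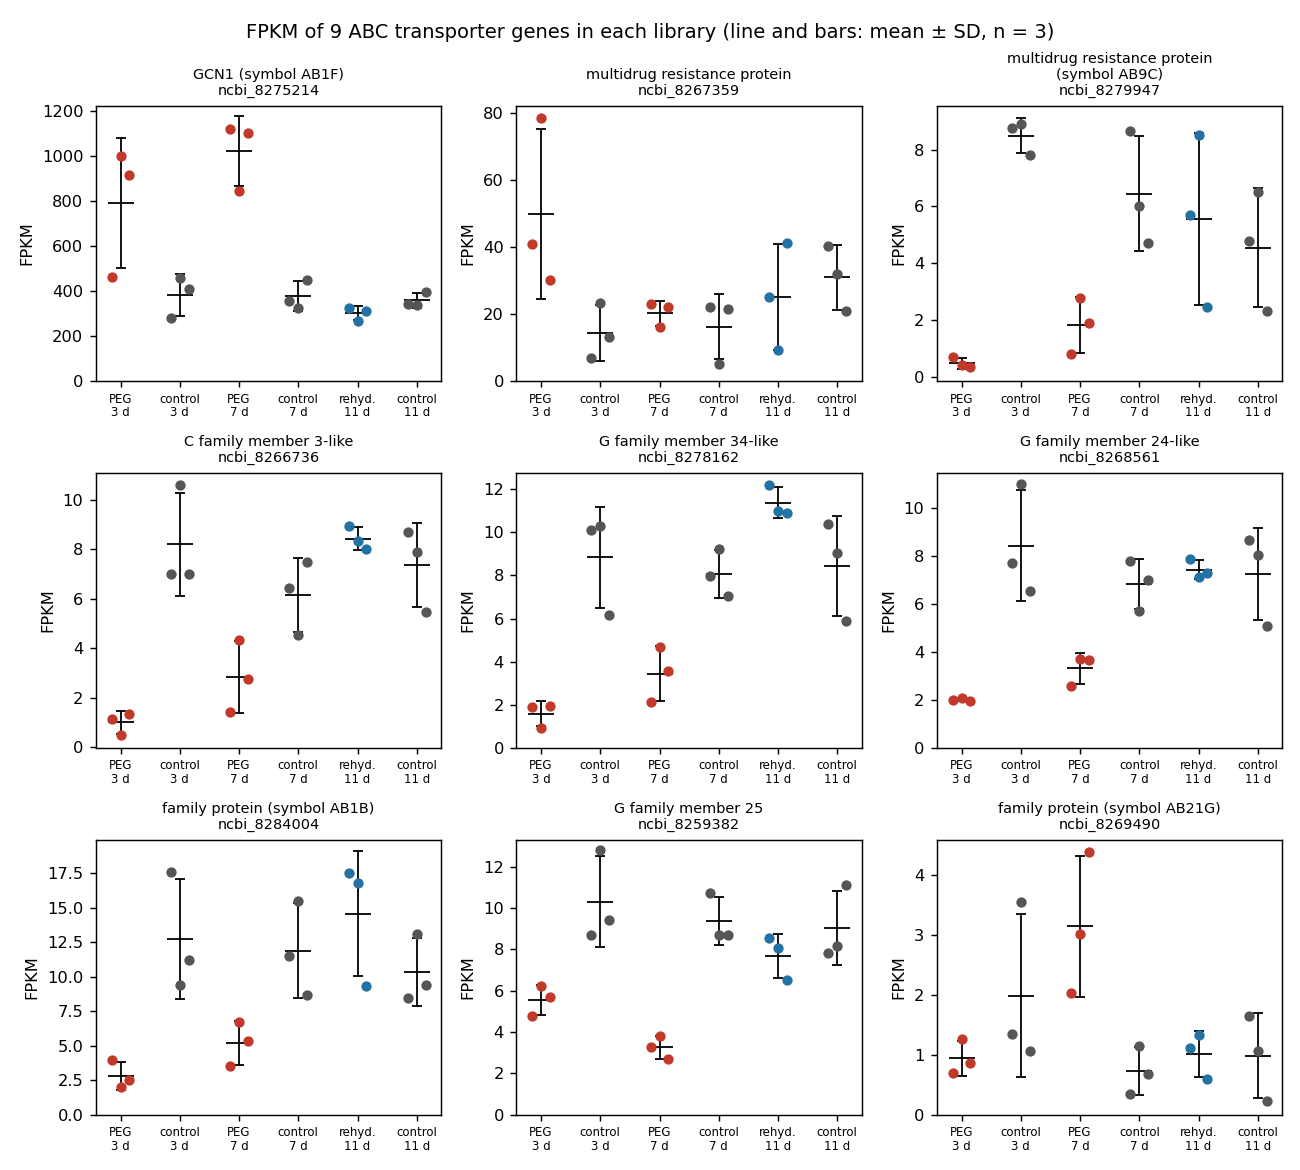
FPKM of 9 ABC transporter genes in each of the 18 libraries (points), with the mean and SD of each group of 3, each PEG or rehydrated group left of its control. GCN1 was high in PEG at 3 d and 7 d and at 267 to 325 FPKM after rehydration, while the AB9C, C3-like, G34-like, G24-like and AB1B genes were low in PEG 3 d and back among the control values at 11 d or above them.

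After 7 d in PEG, 4 of the 74 tested genes were called, 2 higher and 2 lower, against control 7 d roots. Of all tested genes 4.05% were called, 2.59% higher and 1.46% lower, and among the ABC transporter genes the share was 5.41%, again near the background. Their median log2 change was -0.25, against -0.06 for all tested genes. TMM-scaled counts did not overlap for 12 genes higher (16.2%, against 15.2% of all tested genes) and 16 lower (21.6%, against 14.9%). Both lower genes were in subfamily G, whose median was -0.84, with 13 of 15 estimates below 0. The median of G was -1.08 with library totals and -0.71 with the length trend taken out. In edgeR's quasi-likelihood test no gene named B, C, F or I was called, with medians of -0.34, -0.29, -0.03 and 0.49, while DESeq2 called F family member 5 (ncbi_8285123) higher (adjusted p = 0.0345). The sign in F turned with the length trend taken out (0.13). None of the 4 calls held without every library in turn. No ABC transporter gene was called without control library 1, control library 2 or PEG library 1. Of all tested genes 0.49%, 0.287% and 0.343% were called there. Without PEG library 2, 7 were called (9.21%, against 5.05% of all tested genes).

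GCN1 (ncbi_8275214) had 1120, 844 and 1100 FPKM in PEG 7 d, against 356, 324 and 450 FPKM in control 7 d. The lowest PEG library was well above the highest control. The log2 change was 1.72 ± 0.31 (adjusted p = 0.00989), and the adjusted p was 0.0518, 0.0662 and 0.0633 without control library 1, control library 2 and PEG library 1. The 48 green shoot markers, given above, were also higher in PEG 7 d, with 25 of 36 tested called higher and none lower, and their part in the GCN1 level was not tested. A gene with the symbol AB21G (ncbi_8269490) had 2.04, 3.02 and 4.39 FPKM in PEG 7 d, against 0.35, 1.15 and 0.68 FPKM in control 7 d. It stayed low but did not overlap (2.33 ± 0.62, adjusted p = 0.0451), and its call ended without any 1 of the 6 libraries, with adjusted p from 0.055 to 0.149.

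The lower genes at 7 d included the abscisic acid exporter by name. G family member 25 (ncbi_8259382), whose Arabidopsis counterpart exports abscisic acid from vascular cells, had 3.26, 3.8 and 2.7 FPKM in PEG 7 d, against 10.7, 8.7 and 8.68 FPKM in control 7 d. The groups were far apart, with a log2 change of -1.27 ± 0.26 (adjusted p = 0.0188), and the call ended without control library 1 or 2 or PEG library 1 or 3, with adjusted p from 0.0574 to 0.0779. At 3 d it had 4.76, 6.2 and 5.67 FPKM in PEG and 8.67, 12.8 and 9.41 FPKM in control 3 d. These FPKM values did not overlap either, but they did after division by the TMM factors. The TMM-scaled change was -0.45 ± 0.25 (adjusted p = 0.198). G family member 24-like (ncbi_8268561) was the only gene called lower at both times. It had 2.57, 3.71 and 3.65 FPKM in PEG 7 d, against 7.78, 5.69 and 7.0 FPKM in control 7 d (-0.84 ± 0.22, adjusted p = 0.0448). Without any 1 of the 6 libraries the adjusted p at 7 d was from 0.0561 to 0.23.

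Most genes called at 3 d kept their direction at 7 d as estimates. Of the 16 lower genes 13 had an estimate below 0 at 7 d, with a median of -0.53 and a range from -1.60 to 0.20, and all 4 higher genes had an estimate above 0. The AB9C gene (ncbi_8279947) had 0.81, 2.77 and 1.91 FPKM in PEG 7 d and 8.65, 6.0 and 4.7 FPKM in control 7 d, without overlap (-1.60 ± 0.47, adjusted p = 0.0661). G family member 34-like (ncbi_8278162) had 2.11, 4.68 and 3.55 FPKM in PEG 7 d and 7.96, 9.22 and 7.03 FPKM in control 7 d, also without overlap (-1.02 ± 0.30, adjusted p = 0.064). Both passed the threshold with DESeq2, at adjusted p of 0.0203 and 0.0199. The AB15B and B27 genes (ncbi_8265140 and ncbi_8273728) were level at 7 d, with log2 changes of 0.12 ± 0.47 and 0.20 ± 0.33. Across the 74 genes, the 3 d and 7 d log2 changes had a Spearman rho of 0.722, and 57 genes (77.0%) had the same sign. Over all tested genes rho was 0.642 and 74.4% had the same sign. The 2 days have separate libraries and controls but share the scaling and the estimate of spread, and genes are not independent.

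The PEG effect at 7 d minus that at 3 d was called for 0 ABC transporter genes in edgeR's quasi-likelihood test, against 0.236% of all tested genes. At an unadjusted p below 0.05 there were 13 of the 74, against 11.0% of all tested genes. DESeq2 called 1 (1.35%, against 1.55% of all tested genes), the AB21G gene (ncbi_8269490, 2.93, adjusted p = 0.0482). For GCN1 the difference was 0.22 ± 0.43 (adjusted p = 0.891) and for G family member 25 it was -0.82 (adjusted p = 0.417), so a change in response between the days was not shown for either.

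After rehydration no ABC transporter gene was called against control 11 d, in edgeR's quasi-likelihood test or in DESeq2, and 2 passed an unadjusted p below 0.05. Of all tested genes 0.0124% were called, 0.361% with DESeq2, and 9.72% passed the unadjusted p. The median log2 change of the 74 genes was 0.13, against 0.00 for all tested genes, and the median of the 74 turned to -0.03 with the length trend taken out. In subfamily B 13 of 14 estimates were above 0, with a median of 0.32, and with the length trend taken out 10 of 14 were, with a median of 0.18. All 10 xylem wall markers and all 7 tested phloem markers also had estimates above 0 and none was called. The 3 tested endodermis markers and the 2 root uptake genes all had estimates below 0, with medians of -0.85 and -1.47, also without a call. Of the 36 tested green shoot markers 22 had an estimate above 0 and 14 below. The summed FPKM of the xylem wall markers was 68.4 to 110 in rehydrated 11 d, against 16.5 to 62.5 in control 11 d, and their part in the subfamily B values was not tested. The AB9C gene (ncbi_8279947) had 5.68, 8.52 and 2.46 FPKM in rehydrated 11 d and 4.79, 6.49 and 2.33 FPKM in control 11 d. C family member 3-like (ncbi_8266736) had 8.93, 8.36 and 8.03 FPKM in rehydrated 11 d and 8.72, 7.89 and 5.45 FPKM in control 11 d. Both overlapped their controls, as did G24-like, at 7.88, 7.1 and 7.29 FPKM in rehydrated 11 d and 8.64, 8.02 and 5.07 FPKM in control 11 d. G family member 34-like (ncbi_8278162) stood above its controls, at 12.2, 11.0 and 10.9 FPKM in rehydrated 11 d and 10.4, 9.06 and 5.87 FPKM in control 11 d, a change of 0.37 ± 0.29 that was not called (adjusted p = 0.734). The 16 genes lower at 3 d had a median of 0.13 at 11 d, from -0.47 to 0.65.

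GCN1 (ncbi_8275214) had 325, 267 and 311 FPKM in rehydrated 11 d, against 343, 336 and 396 FPKM in control 11 d. All 3 rehydrated libraries lay below the controls, but the change was -0.35 ± 0.30 (adjusted p = 0.757). The difference between the rehydration effect at 11 d and the PEG effect at 7 d was called lower for GCN1, at -2.06 ± 0.43 (adjusted p = 0.0437), and for no other ABC transporter gene. Of all tested genes 0.671% were called in that comparison, 0.584% lower, and at an unadjusted p below 0.05 there were 18 of the 74, against 20.5% of all. It held without control 7 d library 3, PEG 7 d library 2 or control 11 d library 1 and ended without any other 1 of the 12 libraries, with log2 differences from -2.09 to -1.90 and adjusted p from 0.0675 to 0.147. With library totals the adjusted p was 0.0714. DESeq2 called 4 (5.41%, against 5.86% of all tested genes), adding AB19I lower and C family member 3 (ncbi_8266746) and G34-like higher.

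Between untreated roots, 0 ABC transporter genes were called at 7 d against 3 d, where 0.0% of all tested genes were, and 0 at 11 d against 3 d, where 0.0311% were. DESeq2 called none in either, against 0.0% and 0.379% of all tested genes. In edgeR's quasi-likelihood test 2 and 3 genes passed an unadjusted p below 0.05, against 1.11% and 6.73% of all tested genes. The most abundant genes still spread within a control group. G family member 14-like (ncbi_8280145) had 195, 163 and 87.9 FPKM in control 11 d, and the second G29-like gene (ncbi_8273785) had 54.7, 172 and 52.5 FPKM there. At 7 d that second G29-like gene had 2.4, 15.9 and 7.59 FPKM in PEG, against 51.7, 87.5 and 15.6 FPKM in control 7 d. The highest PEG library just exceeded the lowest control, and the change of -2.43 ± 1.02 was not called (adjusted p = 0.17). The PDR1 gene (ncbi_8280312) had 20.2, 54.9 and 35.5 FPKM in PEG 7 d and 91.7, 82.4 and 64.2 FPKM in control 7 d, without overlap, and was not called either (-0.89 ± 0.36, adjusted p = 0.156).

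Gene length moved with the change at 3 d. The 74 tested ABC transporter genes had a median length of 2753 bases, as implied by their counts and FPKM, against 1663 bases for all tested genes, and 63 of the 74 were longer than that median. Median lengths were 4860 bases in subfamily C, 3925 in B, 2694 in G, 2466 in F and 1401 in I. With all tested genes put into 10 equal bins by length, the bin of the shortest genes had a median log2 change of 0.58 in PEG 3 d and that of the longest one of -0.51. At 7 d these medians were 0.15 and -0.10. Spearman's rho between length and the 3 d change was -0.344 over the 74 genes and -0.319 over all tested genes. At 7 d it was -0.403 and -0.13. With each library's length trend taken out, the median of the 74 genes at 3 d was -0.17. Of the 16 lower genes named above, G34-like, G24-like, G3, G8, AB9C, C3-like and AB1B stayed called in that fit and the other 9 did not. Among the 4 higher genes AB19I, at 842 bases, lost its call there and the others kept theirs.

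**Figure D4:**
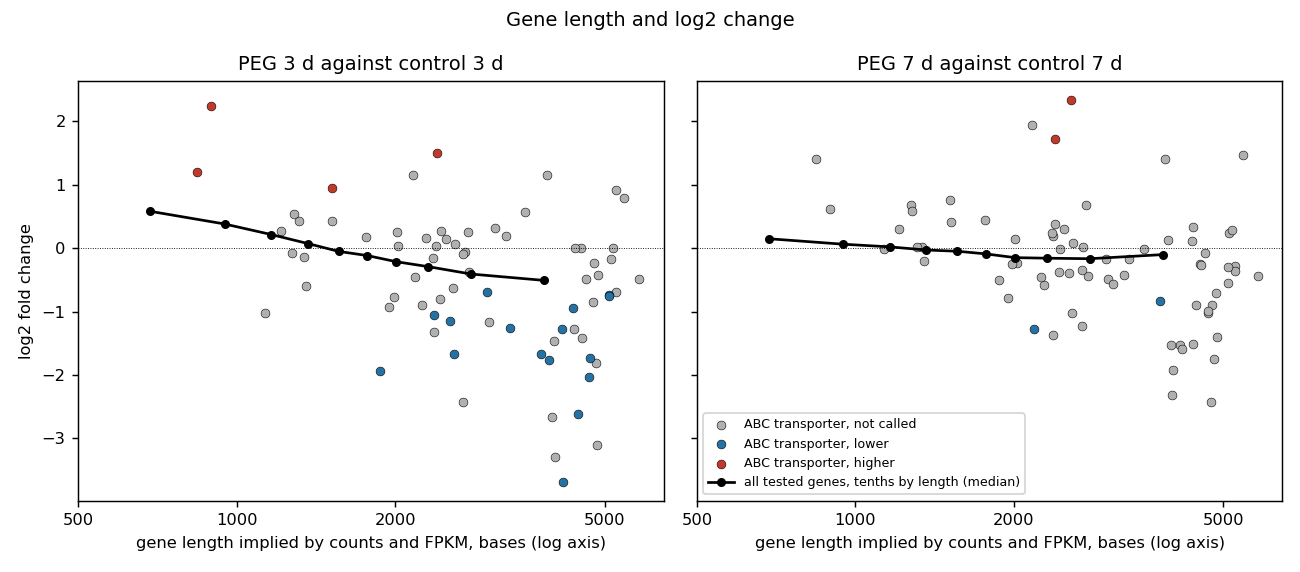
Log2 change of the 74 tested ABC transporter genes (points) against gene length in bases on a log axis, in PEG 3 d and PEG 7 d roots against their controls, with the median of all tested genes in 10 equal bins by length as a line. At 3 d the line is at 0.58 for the shortest genes and -0.51 for the longest, and at 7 d it is flatter.

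Several of the genes lie side by side in the RefSeq assembly ASM1957865v1, used here for gene order only, which matched 100 of the 112. A run of 3 subfamily B genes holds B family member 11-like (ncbi_8265880) and a pair of B family member 21-like genes. The pair's estimates were 0.78 ± 0.54 and 1.15 ± 0.62 at 3 d and 1.47 ± 0.55 and 1.40 ± 0.63 at 7 d, none of them called, against 0.00 and -0.25 for their B11-like neighbour. C family member 12-like (ncbi_8266534) and the AB2C gene (ncbi_8266533) are also adjacent, with log2 changes of 0.92 and -0.74 at 3 d, of which only the second was called. A run of 3 subfamily G genes holds the second G29-like gene at 66.5 FPKM, while its neighbours G36-like (ncbi_8273783) and G29-like (ncbi_8273784) had 105 and 6 counts over all 18 libraries. Genes with the same product name may share reads, and how the authors' counting treated such reads is not given in the sources used here.

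Proteins of the same superfamily that are named pleiotropic drug resistance or otherwise without the words ABC transporter were 18 genes, of which 10 were tested. At 3 d they had 3 higher and 3 lower and a median of -0.51, with no call at 7 d or 11 d. A gene named pleiotropic drug resistance protein 3-like (ncbi_8269793) averaged 55.8 ± 18.6 FPKM in PEG 3 d, against 8.33 ± 0.287 FPKM in control 3 d (SD, n = 3), a rise of 3.18 ± 0.42 (adjusted p = 0.000247). One named pleiotropic drug resistance protein 1-like (ncbi_8280248) averaged 92.3 ± 46.2 FPKM in PEG 3 d, against 3.83 ± 5.64 FPKM in control 3 d, a rise of 5.01 ± 1.29 (adjusted p = 0.0132). The lower ones were all named pleiotropic drug resistance protein 2-like, among them ncbi_8269646 with 22.2 ± 5.49 FPKM in PEG 3 d, against 103 ± 51.3 FPKM in control 3 d (-1.78 ± 0.34, adjusted p = 0.00242). Like subfamily G full-length exporters, these belong to the PDR type, so the family as named holds only part of that type. The MATE exporters, unrelated carriers that also move conjugates and organic acids, had 3 higher and 3 lower of 26 tested at 3 d and 1 of each at 7 d.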

How the data were processed

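Total RNA from root systems was extracted with Trizol and made into mRNA libraries with a dual-mode kit, per the labels' protocols. The authors deposited 1 table with expected counts and FPKM per library, per the file headers; the aligner, counter, genome build, strand setting and treatment of shared reads are unstated. Of 36 per-sample columns, 3 were not used, the deposited FPKM of control 11 d, because titles and descriptions point to different columns. FPKM for that group was computed from the counts, totals and implied gene lengths, and in the other groups such values were 0.9946 to 1.004 times the deposited FPKM at the 5th and 95th percentiles.

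The expected counts as deposited (at least 98.3% whole in each library) were rounded and tested in R 4.3.3 with edgeR 4.0.16: filterByExpr with a minimum count of 10 and total of 15, TMM, 1 model of 6 groups with 3 libraries each, the quasi-likelihood test and Benjamini-Hochberg adjustment over 16085 genes at 0.05. The scripts were tested on simulated data. Alternatives tried were library totals, DESeq2 1.42.0, edgeR with the size factors of DESeq2, no filter, only the libraries compared, a replicate block, removal of each library's trend with gene length, with and without the block, an adjusted p below 0.01, and leaving out each library. Library totals were 6607754 to 10817475 counts, and replicate libraries differed beyond counting noise, so no library was counted as a copy.

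Members and gene lists were chosen with earlier results of these data known. Genes were named by a rule: in each treatment comparison all called genes if 16 or fewer, otherwise the 8 largest rises and 8 largest falls among called genes with a mean of at least 1 FPKM in a compared group; the most abundant gene of each subfamily; genes called in both directions; the largest called rise and fall of each interaction; and up to 3 called each way between control groups. The remaining called genes at 3 d were named to complete the count.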

Additional observations from a re-analysis of the deposited data

Results flagged for a closer look

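The difference between the rehydration effect at 11 d and the PEG effect at 7 d for GCN1 (ncbi_8275214) was -2.064 on the log2 scale in edgeR's quasi-likelihood test (adjusted p = 0.0437), a difference tested as an interaction. The gene was higher in PEG 7 d than in control 7 d in every library, and lower in rehydrated 11 d than in control 11 d in every library. The call ended without 9 of the 12 libraries taken out singly.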

How the results depend on the processing

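Of the 20 calls at 3 d, 8 held without any 1 library and 6 under every alternative tried. At 3 d the count was 32 with library totals, 7 when only the libraries compared were fitted, 8 at an adjusted p below 0.01 and 13 with the gene length trend removed, and leaving out 1 library gave 10 to 20. At 7 d, where the count was 4, it was 9 with DESeq2 (12.2%, against 10.5% of all tested genes). It was 1 when only the libraries compared were fitted (1.43%, against 1.12%) and 1 at an adjusted p below 0.01 (1.35%, against 0.435%). Without 1 library it was 0 to 7, or 0.0% to 9.21%, against 0.287% to 5.05% of all tested genes. The PEG effect at 7 d minus that at 3 d gave 0 calls, and 1 with DESeq2 (1.35%, against 1.55% of all tested genes). The rehydration effect at 11 d minus the PEG effect at 7 d gave 1 call. It gave 4 with DESeq2 (5.41%, against 5.86% of all tested genes) and 3 when only the libraries compared were fitted (4.17%, against 2.76%). There were 0 with library totals, with the length trend removed and at an adjusted p below 0.01, against 0.124%, 0.0311% and 0.0187% of all. Without 1 library there were 0 to 2, or 0.0% to 2.63%, against 0.0183% to 2.65% of all tested genes. The cause of these changes was not tested. Rehydrated 11 d against control 11 d and the control groups over time gave 0 calls under every alternative, where at most 0.379% of all tested genes were called. No named result reversed, and of the single-gene values under an alternative 592 stayed on their side of the threshold and 147 lost their call. The 592 include many values of genes not called in the main fit, which had no call to lose. All 147 came from results called in the main fit, so the 592 overstate how stable the calls were.

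Replicate numbers are shared between groups. Deviations of same-numbered libraries from their group means correlated at 0.625, 0.501 and 0.0799 at 3 d and 0.047, 0.503 and -0.227 at 7 d, so the numbers were not taken to pair the libraries. With the replicate number as a block the 3 d count was 13 (17.6%, against 21.1% of all tested genes). With the length trend removed as well it was 11 at 3 d (14.9%, against 17.5%). For the rehydration effect minus the PEG effect it was then 0, against 0.0249% of all. At 7 d the block gave 5 calls (6.76%, against 3.36%).

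The 38 genes not tested held at most 105 counts over the 18 libraries, and nothing is said of differences in them.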

Other observations

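The genes given next lie outside the naming rule and were chosen after their values were seen. F family member 5 (ncbi_8285123) had 26.9, 13 and 28.1 FPKM in PEG 7 d and 13.8, 3.65 and 4.38 FPKM in control 7 d, with a log2 change of 1.94 ± 0.69 (adjusted p = 0.114 in edgeR's quasi-likelihood test, 0.0345 in DESeq2). C family member 3 (ncbi_8266746) had 8.6, 13 and 11 FPKM in rehydrated 11 d, all above the 5.11, 5.81 and 3.77 FPKM of control 11 d, and a log2 change of 1.09 ± 0.49 that was not called (adjusted p = 0.49). At 7 d it had 0.83, 3.16 and 1.37 FPKM in PEG, all below the 6.02, 5.67 and 4.64 FPKM of control 7 d (adjusted p = 0.114).

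A pair of large uncalled changes at 3 d had 1 control library far above the other pair. B family member 4-like (ncbi_8261362) had 0.42, 0.09 and 0.25 FPKM in PEG 3 d and 8.7, 0.79 and 1.05 FPKM in control 3 d (-3.30 ± 1.21, adjusted p = 0.0599). C family member 8 (ncbi_8266980) had 0.14, 0.05 and 0.11 FPKM in PEG 3 d and 3.03, 0.18 and 0.5 FPKM in control 3 d (-3.10 ± 1.11, adjusted p = 0.0545). DESeq2 called both, at adjusted p of 0.00825 and 0.0119.

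AB17I (ncbi_8268854), the symbol of an ATP-binding protein tied to aluminium tolerance in Arabidopsis, had 16.3, 9.59 and 19.1 FPKM in PEG 3 d and 40.6, 20.5 and 62.7 FPKM in control 3 d. The FPKM groups did not overlap, but they did after division by the TMM factors. The change of -1.03 ± 0.45 was not called (adjusted p = 0.11). AB2E (ncbi_8261457) is a ribosome recycling factor by its symbol. It had 28.8, 32.6 and 33.1 FPKM in PEG 3 d and 41.1, 43.9 and 48.3 FPKM in control 3 d. These too overlapped only after division by the TMM factors. Its TMM-scaled log2 changes were -0.06, 0.01 and 0.03 at 3 d, 7 d and 11 d. With library totals edgeR's quasi-likelihood test called it lower at 3 d (-0.50, adjusted p = 0.0336). Over all 18 libraries it ran from 28.8 to 55.3 FPKM.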
